A study of Mus musculus with 6 samples.

Results

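S100 proteins are small calcium-binding proteins, and 8 of their genes, S100b, S100a1, S100a4, S100a6, S100a10, S100a11, S100a13 and S100a16, were examined in astrocytes of the upper and deep layers of the mouse neocortex. The members were the rows of the deposited expression table whose symbol equalled one of these names. All 8 were found among 43383 rows, 1 row each. Of the 8, 6 had a mean of at least 1 RPKM (a read number divided by mRNA length and by the size of the library) over all libraries and entered the test, and S100a10 and S100a11 did not.

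RNA-seq was performed on GFP-positive cells sorted from the somatosensory cortex of 4-week-old male mice of the genotype Aldh1l1-eGFP, and the labels give no further allele or treatment for either group. Upper-layer astrocytes (ULAs) came from layers II to IV and deep-layer astrocytes (DLAs) from layers V and VI of the same 3 brains, so that there were 6 libraries and n = 3 per layer. The study compared the groups to ask whether astrocytes of different layers differ in gene expression. GFP in these mice is driven by the regulatory sequences of Aldh1l1, a folate enzyme gene of astrocytes. Per the study's methods the dissection left out the pial side of the tissue, the white matter and the zone where the upper and deep strips met. In the sorted cells 9 markers of white matter and pial astrocytes summed to 771 to 961 RPKM in ULAs and 664 to 815 RPKM in DLAs. Most of this sum came from Fabp7 and from Aqp4, which is also among the general astrocyte markers. None of the 9 was at 0 in all libraries, but Thbs4, Myoc and Itih2 were at most 0.15, 0.25 and 0.17 RPKM. Gfap, the 1 marker of this list called in limma, was higher in DLAs (adjusted p of 0.00556).

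Each S100 protein carries paired EF hands, helix-loop-helix motifs that bind calcium. Most form dimers, and the binding of calcium exposes a surface that takes up a target protein, among them annexins, cytoskeletal proteins, kinases and p53. Some S100 proteins are also released from cells and bind the receptor RAGE, encoded by Ager. S100b is a classical marker of mature astrocytes, and is also made by oligodendrocytes.

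In the cortical astrocytes S100a1, S100a16 and S100b were among the abundant mRNAs, S100a13 and S100a6 were intermediate, S100a4 was low, and S100a10 and S100a11 were near or below the limit of detection. S100b, S100a1 and S100a13 were each about 1.2-fold higher in DLAs, in all 3 brains and with no overlap between the layers, which was true of 9.27% of all rows tested. No member was called in limma at an adjusted p under 0.05, as 0.914% of rows were in the direction of DLAs and 0.714% in that of ULAs, and the same 3 members had an unadjusted p under 0.05 (10.8% of rows higher in DLAs). After a correction for mRNA length their log2 fold changes shrank from −0.28 to −0.18 for S100b and from −0.27 to −0.15 for S100a1. That of S100a13 shrank from −0.30 to −0.17, and none of the 3 kept an unadjusted p under 0.05. With quantile normalization, which makes no use of mRNA length, the 3 values were −0.17, −0.18 and −0.21. S100a16 and S100a6 overlapped between the layers, as did S100a4, the 1 tested member with a higher mean in ULAs.

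In the coordinates of mouse build mm9, which the table's submitters name, 7 members lay on chromosome 3 between bases 90314956 and 93368567, a span of 3.05 Mb, and S100b lay alone on chromosome 10. S100a1, on the minus strand at chr3:90314956-90318252, and S100a13, on the plus strand at chr3:90318357-90328503, stood head to head with 104 bases between their starts. RefSeq gives the same distance in build GRCm38.p6. These genes are described first because they had nearly the same ratio in every library, as given further on. The part of their shared upstream stretch that is in no annotated exon, 42 bases at GRCm38.p6 chr3:90514393-90514434 read on the strand of S100a13, is shown without capitals because it held none of the motifs searched.
Between S100a1 and S100a13: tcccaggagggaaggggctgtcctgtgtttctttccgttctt

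The upstream regions of S100b and S100a4 are shown because S100b is the astrocyte marker of the family and S100a4 was the 1 tested member with a higher mean in ULAs. RefSeq promoter windows, 250 bases before to 50 after the start, were held for 7 of the 8 members, with 2 windows for S100a16 and none for S100a10. They were searched on both strands for the TATA box, the CCAAT box, the GC box and the AP-1, E-box and cyclic AMP response element motifs, whose letters are given with each result. The capitals mark the CCAAT box, found on each strand, at GRCm38.p6 chr10:76253586-76253835 upstream of S100b, and the TATA box at chr3:90603520-90603769 upstream of S100a4, both sequences read on the plus strand.
Upstream of S100b: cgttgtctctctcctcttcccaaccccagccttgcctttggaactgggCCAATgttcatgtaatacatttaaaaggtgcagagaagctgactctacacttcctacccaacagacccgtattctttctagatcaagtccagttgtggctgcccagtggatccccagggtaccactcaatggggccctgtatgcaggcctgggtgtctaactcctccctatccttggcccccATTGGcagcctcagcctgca
Upstream of S100a4: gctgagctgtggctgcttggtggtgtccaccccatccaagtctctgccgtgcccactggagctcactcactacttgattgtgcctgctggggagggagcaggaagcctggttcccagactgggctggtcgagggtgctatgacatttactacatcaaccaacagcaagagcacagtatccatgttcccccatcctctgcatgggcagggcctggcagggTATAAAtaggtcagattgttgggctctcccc

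The TATA box, with the letters TATAAA, was found in the window of S100a4 alone, 31 bases before the start, and in 13.6% of all 32841 promoter windows. The CCAAT box was found for S100b and S100a6 and in 37.4% of all windows. The GC box, spelled GGGCGG, was found for S100a11 and S100a16 and in 35.7% of all windows. The same members held the AP-1 motif, searched as TGANTCA, which occurred in 7.81% of all windows. The E-box, taken as CACGTG, was found for S100a6 and S100a11 and in 7.15% of all windows. The core of the cyclic AMP response element, the letters TGACGT, was found for S100a13 and in 7.51% of all windows. No motif was shared by S100b, S100a1 and S100a13. These are matches of letters, and binding was not measured.

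The sorted cells had the profile of astrocytes. The summed level of 12 astrocyte markers, led by Aldoc, was 13274 to 14322 RPKM in ULAs and 12545 to 13307 RPKM in DLAs, and 0 of them were called between the layers in limma, with 3 higher in ULAs and 0 in DLAs at an unadjusted p under 0.05. The summed level of 10 neuron markers was 12.4 to 13.3 RPKM and 10.7 to 13.3 RPKM, that of 10 microglia markers 63.5 to 77.1 and 62.9 to 75.8 RPKM, and that of 10 endothelial markers 1.54 to 2.37 and 1.03 to 4.17 RPKM. Depth, inferred from the size of 1 read in RPKM, was 19.7 to 29.6 M reads per library, lowest in the DLAs of brain 2.

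The order of the members was the same in both layers, S100a1, S100a16, S100b, S100a13, S100a6 and S100a4, and in neither layer did neighbours in this order overlap over the 3 brains. RPKM is per length, so these levels can be set side by side. In ULAs each member's mean exceeded that of the next by 1.36, 2.31, 2.21, 1.81 and 4.00 times, and in DLAs by 1.44, 2.17, 2.18, 2.11 and 4.80 times. Among all 43383 rows ranked by mean RPKM, S100a1 stood at rank 119 in ULAs and 101 in DLAs, S100a16 at 175 and 161, S100b at 455 and 395, S100a13 at 1242 and 1048, S100a6 at 2313 and 2343, and S100a4 at 6812 and 7348.

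**Figure D1:**
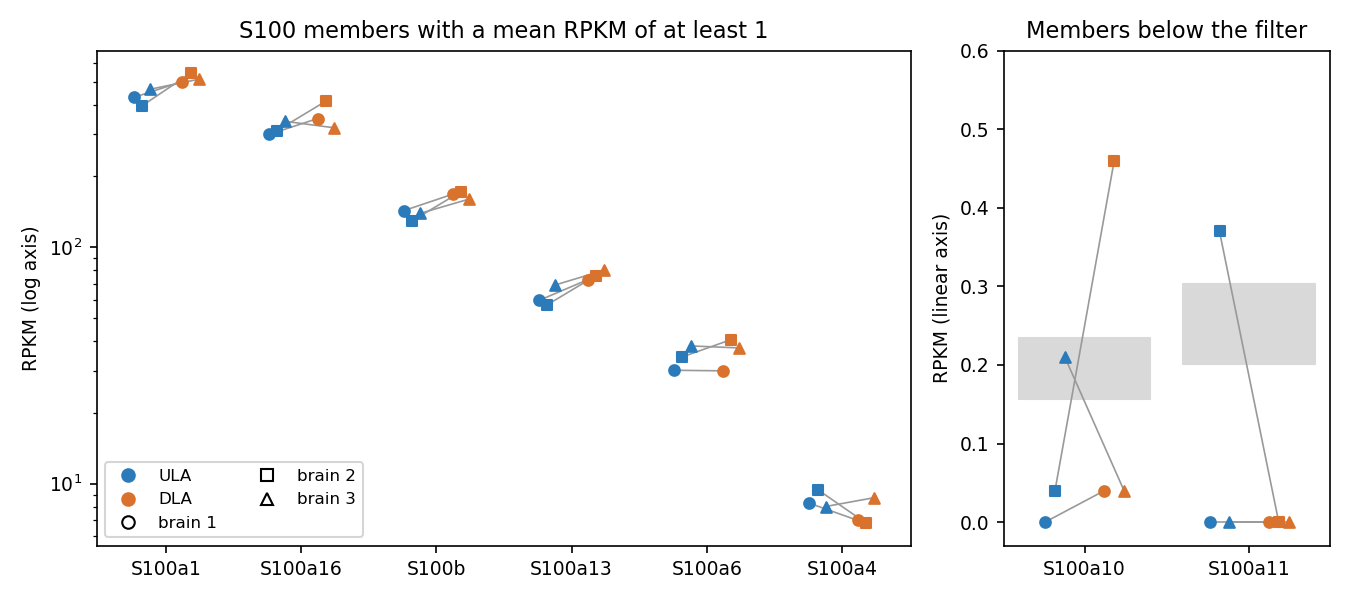
RPKM of each S100 member in the 6 libraries (blue, ULAs; orange, DLAs; a circle, square and triangle for brains 1, 2 and 3, joined by grey lines). The left panel has a log axis and shows S100b, S100a1 and S100a13 higher in DLAs in each brain; the right panel has a linear axis and shows S100a10 and S100a11, with a grey band for the range over libraries of the level that 3 reads would give.

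S100b encodes the dimer-forming protein that serves as an astrocyte marker and is released from astrocytes. Its row, NM_009115 at mm9 chr10:75716581-75724064 with an mRNA of 1661 bases, held 143.01, 129.33 and 139.23 RPKM in the ULA libraries, given here and below in the order of brains 1, 2 and 3. The DLA libraries held 167.7, 171.96 and 159.86 RPKM. Every DLA library was above every ULA library. The means were 137.2 ± 7.06 and 166.5 ± 6.14 RPKM (SD, n = 3), from 5504 to 7848 reads per library. The log2 fold change of ULAs over DLAs on the log2(RPKM + 1) scale was −0.28 (SE 0.095, 95% interval −0.49 to −0.066), or 1.21-fold higher in DLAs, with an adjusted p of 0.194 in limma. S100b did not pass the threshold of 0.05.

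S100a1, best known from heart and skeletal muscle, where it acts on the calcium pump of the sarcoplasmic reticulum and on ryanodine receptors, was the most abundant member. It held 430.53, 396.45 and 465.93 RPKM in ULAs of brains 1 to 3 and 502.43, 544.69 and 513.96 RPKM in DLAs. Again no DLA library fell to the level of a ULA library. The means were 431.0 ± 34.7 and 520.4 ± 21.8 RPKM (SD, n = 3), on an mRNA of 615 bases and 6247 to 9343 reads. The log2 fold change was −0.27 (SE 0.098, 95% interval −0.49 to −0.054), 1.21-fold higher in DLAs, with an adjusted p of 0.211 in limma. It was −0.30 without brain 1, −0.18 without brain 2 and −0.34 without brain 3.

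S100a13, a partner of FGF1 in its release from cells without a signal peptide, lies next to S100a1 but was several times lower. Its values were 59.65, 57.14 and 69.34 RPKM in ULAs and 72.97, 75.91 and 79.95 RPKM in DLAs. The layers did not overlap, with the ULAs of brain 3 and the DLAs of brain 1 nearest to each other. The means were 62.0 ± 6.44 and 76.3 ± 3.50 RPKM (SD, n = 3), from 1043 to 1690 reads. Its log2 fold change of −0.30 (SE 0.098, 95% interval −0.52 to −0.079), 1.23-fold higher in DLAs, was the largest in size among the members tested, with an adjusted p of 0.178 in limma.

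S100a16, a widely expressed member, was second in abundance. It held 300.09, 311.68 and 341.01 RPKM in ULAs and 350.45, 414.49 and 320.39 RPKM in DLAs of brains 1 to 3, at mm9 chr3:90345145-90347073. The layers overlapped, since in brain 3 the DLAs were below the ULAs. The means were 317.6 ± 21.1 and 361.8 ± 48.1 RPKM (SD, n = 3), and the log2 fold change was −0.18 (SE 0.11, 95% interval −0.43 to 0.065), with an adjusted p of 0.445 in limma. It was −0.067 without brain 2 and −0.32 without brain 3.

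S100a6, also called calcyclin, binds CACYBP and SUGT1, proteins linked to ubiquitin ligases. It held 30.19, 34.4 and 38.27 RPKM in ULAs and 30.02, 40.68 and 37.53 RPKM in DLAs, at mm9 chr3:90416816-90418336. The layers overlapped almost wholly, and brain 2 was the 1 brain in which DLAs were higher. The means were 34.3 ± 4.04 and 36.1 ± 5.48 RPKM (SD, n = 3), and the log2 fold change was −0.067 (SE 0.11, 95% interval −0.30 to 0.17), with an adjusted p of 0.801 in limma. Its sign turned under 3 of 12 other fits, those with quantile normalization, with the length correction and without brain 2, so no direction is given for it.

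S100a4, which binds the heavy chain of non-muscle myosin encoded by Myh9 and is abundant in fibroblasts and immune cells, was the lowest of the tested members. It held 8.27, 9.45 and 8.01 RPKM in ULAs and 6.99, 6.81 and 8.73 RPKM in DLAs, at mm9 chr3:90407692-90409967. It was lower in DLAs in brains 1 and 2 and higher in brain 3, and the layers overlapped. The means were 8.58 ± 0.767 and 7.51 ± 1.06 RPKM (SD, n = 3), which rested on 67 to 129 reads per library. The log2 fold change was 0.17 (SE 0.14, 95% interval −0.13 to 0.48), with an adjusted p of 0.567 in limma. It was 0.052 without brain 2 and 0.32 without brain 3. In GENCODE on GRCm38, 48.7% of the 36-base windows of S100a4 transcripts also lie in Gm42674, an annotated gene that overlaps it, so its reads cannot be assigned to S100a4 alone.

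S100a10, the partner of annexin A2 that does not need calcium for binding, is known as a marker of some reactive astrocytes. It was listed at 0, 0.04 and 0.21 RPKM in ULAs and 0.04, 0.46 and 0.04 RPKM in DLAs, at mm9 chr3:93359039-93368567. These values correspond to 0, 1 and 4 reads and to 1, 6 and 1 reads. The level that 3 reads would give was 0.156 to 0.235 RPKM, so 1 ULA and 1 DLA library were above it, and a difference between the layers was not detectable at this depth.

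S100a11, which binds annexins and is abundant in epithelia, was listed at 0.37 RPKM in the ULAs of brain 2, or 5 reads, and at 0 in the other 5 libraries. A count of 0 allows up to 0.201 to 0.303 RPKM in these libraries, a limit that covers counting error only. The value of S100a11 is uncertain in another way. Of its 476 windows of 36 bases, the read length, 223 (46.8%) occur also in transcripts of other genes, 216 of them in Gm12854 and 139 in Gm7665, and how the authors counted reads with several matches is not given in the sources used here. The coding sequence, from the gene at GRCm38 chr3:93520488-93526287, is shown with capitals for the 128 of 297 bases that lie in a window found in no other gene.
S100a11 coding sequence: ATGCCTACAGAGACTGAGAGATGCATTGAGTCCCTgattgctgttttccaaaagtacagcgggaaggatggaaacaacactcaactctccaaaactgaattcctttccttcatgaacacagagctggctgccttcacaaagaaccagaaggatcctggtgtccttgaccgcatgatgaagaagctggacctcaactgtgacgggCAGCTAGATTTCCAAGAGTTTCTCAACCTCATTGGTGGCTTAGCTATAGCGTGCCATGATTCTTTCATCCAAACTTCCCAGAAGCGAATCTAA
For S100b, S100a1, S100a6, S100a10, S100a13 and S100a16, 0 windows occurred in another gene.

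Across the table, limma tested 13999 rows in a model that holds brain and layer. At an adjusted p under 0.05, 128 rows were higher in DLAs and 100 rows were higher in ULAs. Of the 6 members tested, 0 were called in either direction. At an unadjusted p under 0.05, 3 members were higher in DLAs and 0 in ULAs, against 1505 and 790 rows of the table. The same 3 members were the ones whose layers did not overlap with DLAs higher, as was true of 1298 rows. Of all rows tested, 23.2% were higher in DLAs in all 3 brains.

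The members' median log2 fold change was −0.23, compared with −0.027 over all rows tested, of which 55.0% lay below 0. The central range of all rows, from the 5th to the 95th percentile, was −0.38 to 0.34, and 1350 rows had a value at or below that of S100a13. The members are short mRNAs, with a median of 717 bases for the tested ones against 2444 bases for all rows tested, and short mRNAs tended to be higher in DLAs. The median was −0.11 for rows of up to 1000 bases and 0.086 for rows over 4000 bases. For the long rows it was 0.068 in brain 1, 0.21 in brain 2 and −0.031 in brain 3, whereas for the short rows it was below 0 in each brain (−0.099, −0.15 and −0.10). Over the 3556 rows within the members' range of 499 to 1661 bases it was −0.14.

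When the ratios of each brain were corrected for mRNA length, the difference was −0.18 for S100b (SE 0.077, 95% interval −0.36 to 0.0030, adjusted p of 0.379 in limma). It was −0.15 for S100a1 (adjusted p of 0.491) and −0.17 for S100a13 (adjusted p of 0.420). All 3 differences kept their direction and became more than 1.5 times smaller. S100a16 moved to −0.054, S100a4 to 0.30 and S100a6 to 0.063, with adjusted p-values of 0.848, 0.393 and 0.806. Quantile normalization without a length correction gave −0.17 for S100b, −0.18 for S100a1, −0.21 for S100a13 and −0.081 for S100a16. Shrinkage was therefore not seen with the length correction alone.

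**Figure D2:**
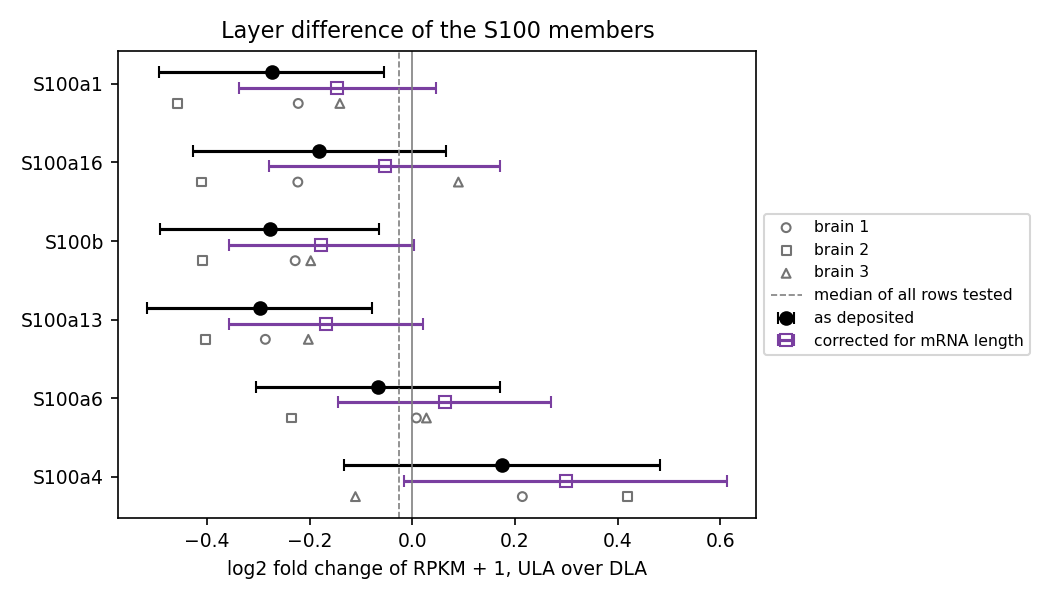
Difference between ULAs and DLAs of each tested S100 member on the log2(RPKM + 1) scale, with values below 0 higher in DLAs. Black points give the limma estimate with its 95% interval, purple squares the same after correction for mRNA length, grey open symbols the 3 brains, and the dashed line the median of all rows tested (−0.027); the black intervals of S100b, S100a1 and S100a13 lie below 0, and after the length correction all 3 reach above 0.

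The size of the difference varied between brains, and it was largest in brain 2 for the members higher in DLAs. S100b was 1.17, 1.33 and 1.15 times as high in DLAs as in ULAs of brains 1, 2 and 3. S100a1 was 1.17, 1.37 and 1.10 times as high, and S100a13 was 1.22, 1.33 and 1.15 times as high. S100a16 followed them in brains 1 and 2, with ratios of 1.17 and 1.33, but stood at 0.940 in brain 3.

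Markers of some other cell types differed between the layers, in both directions. Of the 2 tested markers of pericytes and smooth muscle, Rgs5 was called higher in ULAs (adjusted p of 0.0455 in limma). Its means were 2.25 RPKM in ULAs and 0.897 RPKM in DLAs. The summed level of 10 oligodendrocyte markers was 109 to 205 RPKM in ULAs and 210 to 318 RPKM in DLAs, 1.92, 2.21 and 1.55 times as high in the DLAs of brains 1, 2 and 3. Of the 9 tested, 7 were called higher in DLAs in limma, and none of the 10 was at 0. Blood cell markers summed to 1.06 to 1.79 RPKM in ULAs and 15.4 to 76.8 RPKM in DLAs, with 3 globin rows called higher in DLAs and S100a9 at 0. The summed level of 8 markers of oligodendrocyte precursors was 85.9 to 97.4 RPKM and 97.6 to 134 RPKM. Their part in the differences of S100b, S100a1 and S100a13 was not tested. In such pooled cells, fewer cells of a type and less RNA per cell cannot be told apart. For S100a4, which fibroblasts express, 10 meningeal fibroblast markers summed to 3.11 to 4.12 RPKM and 4.99 to 6.34 RPKM, with Col3a1, Slc6a13 and Foxd1 at 0.

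The sum of the 8 members was 938.9 to 1062 RPKM in ULAs and 1120.5 to 1255 RPKM in DLAs, without overlap. The make-up of this sum varied little for S100a1, S100a16, S100b and S100a13, and more for S100a6 and S100a4. S100a1 made up 42.2% to 45.9% of it, S100a16 28.6% to 33.2%, S100b 13.1% to 14.8%, S100a13 6.05% to 7.14%, S100a6 2.66% to 3.66% and S100a4 0.543% to 1.01% over the 6 libraries. For each of these members the shares of ULAs and DLAs overlapped. S100a1, S100a16 and S100b together came to 88.7% to 90.3%.

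**Figure D3:**
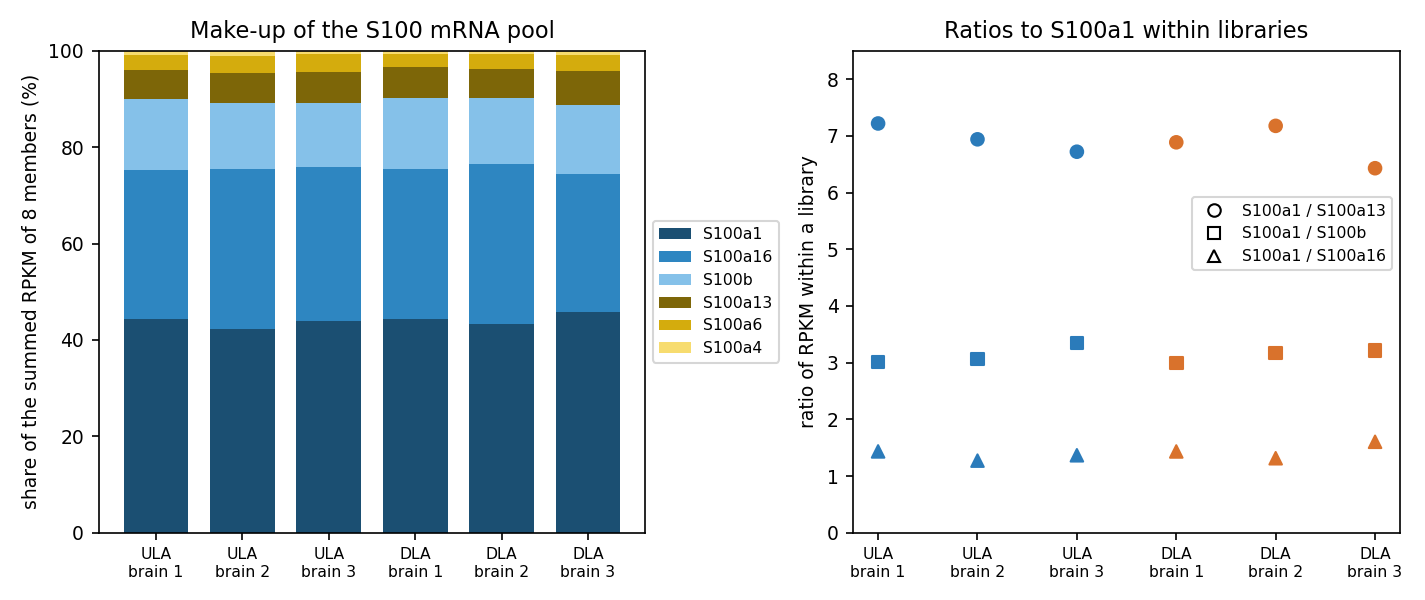
Left, share of each S100 member in the summed RPKM of the 8 members, in percent, for each library (S100a10 and S100a11 are too low to be seen). Right, RPKM of S100a1 divided by that of S100a13, S100b or S100a16 within each library (blue, ULAs; orange, DLAs); each ratio has overlapping ranges in the layers.

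Within a library S100a1 was 6.43 to 7.22 times as high as S100a13, the gene it stands head to head with, and 3.00 to 3.35 times as high as S100b, on the other chromosome. The SD of the log2 ratio to S100a1 over the 6 libraries was 0.061 for S100a13 and 0.062 for S100b. Of the 13998 other rows tested, 90 (0.643%) had a smaller SD than S100a13 and 98 (0.70%) had a smaller SD than S100b. The SD was 0.118 for S100a16, 0.185 for S100a6 and 0.312 for S100a4, and 7.87%, 27.7% and 70.1% of rows had a smaller one. The libraries share brain, sort and depth for all rows, and no test was made of these ratios.

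The rows most like S100b in their log2 ratios of RPKM + 1 over the 3 brains, by the root mean square difference, were a row listed under the number 52409 (0.00864), March2 (0.0121), which encodes a membrane-bound ubiquitin ligase, and Ndufb9 (0.0141), which encodes a subunit of respiratory complex I. Those most like S100a13 were Echs1 (0.0059), a mitochondrial enzyme of fatty acid oxidation, 3110062M04Rik (0.00659) and 9130401M01Rik (0.0119). The scale compresses the ratios of low rows, and 52409, at 0.843 and 1.24 RPKM in ULAs and DLAs, and 3110062M04Rik, at 1.27 and 1.8 RPKM, had larger ratios of RPKM than S100b and S100a13. Such likeness over 3 brains was common, since 588 rows lay within 0.1 of S100b and 526 within 0.1 of S100a13.

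The remaining S100 genes were hardly detected. Of 10 listed, 9 had a row, and 0 reached the mean of 1 RPKM needed for the test. S100a5, S100a9 and S100z were listed at 0 in all libraries, S100a2 was above 0 in 1 library (0.15 RPKM), and S100a8, a granulocyte gene, in 2 (0.07 and 0.12 RPKM). S100a7a was the highest of them at 0.08 to 1.43 RPKM, or 2 to 21 reads. S100g ranged from 0.06 to 0.93 RPKM, S100a3 from 0.04 to 0.28 RPKM and S100a14 from 0.02 to 0.23 RPKM, and for each of these the layers overlapped.

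Of 25 genes for known binding partners of S100 proteins and their receptor, 17 were tested, with a median log2 fold change of −0.0081. Of these, 1 was called higher in ULAs and 1 higher in DLAs in limma. Plat, which encodes tissue plasminogen activator, a ligand of S100A10, rose in ULAs with 84.04, 71.9 and 52.78 RPKM against 53.6, 54.4 and 30.37 RPKM in DLAs. The layers overlapped, but ULAs were higher in each brain, and its log2 difference was 0.60 (SE 0.11), called in limma at an adjusted p of 0.0238, with 0.00589 to 0.460 under other fits. The call for Plat was lost without brain 1 (adjusted p of 0.0942) and in 3 other fits. Gfap, the intermediate filament gene whose protein binds S100B, was lower in ULAs with 12.18, 12.49 and 10.37 RPKM against 23.82, 28.82 and 17.77 RPKM, without overlap. Its log2 fold change was −0.93 (adjusted p of 0.00556 in limma, 1.43e-06 to 0.301 under other fits).

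**Figure D4:**
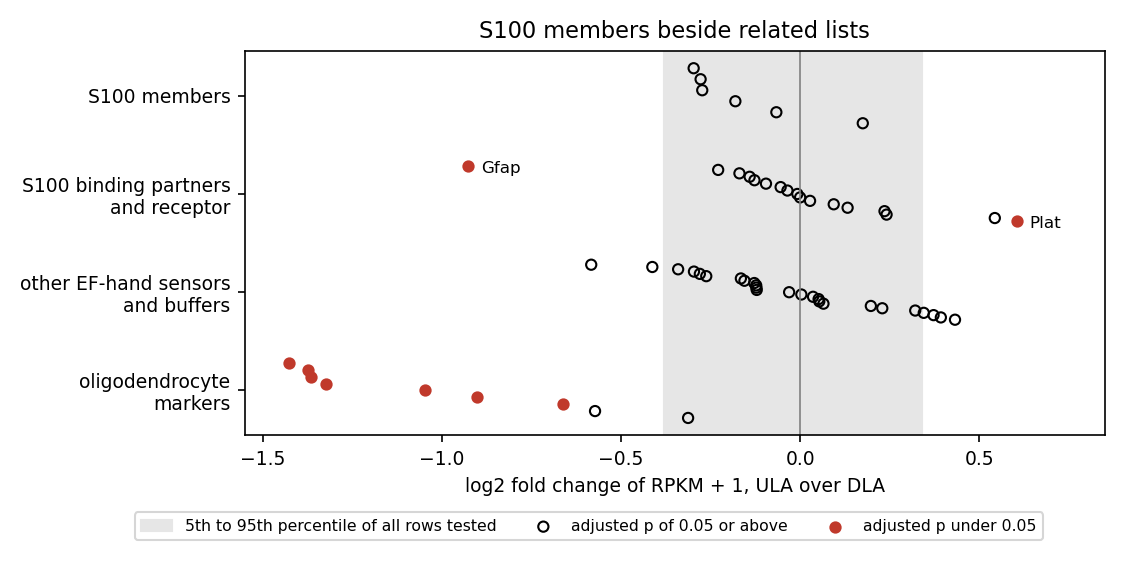
Log2 fold change of RPKM + 1, ULAs over DLAs, of each tested gene among the S100 members, the S100 binding partners with the receptor, other EF-hand genes and oligodendrocyte markers. Filled red points have an adjusted p under 0.05 in limma and the grey band runs from the 5th to the 95th percentile of all rows tested (−0.38 to 0.34); all 6 S100 members lie inside the band and are open.

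The annexins, the main partners of S100A10, S100A11 and S100A6, differed widely in level. Anxa5 was at 193.8 ± 7.47 RPKM in ULAs and 212.1 ± 13.8 RPKM in DLAs (SD, n = 3; log2 fold change −0.13, adjusted p of 0.533 in limma), and Anxa6 at 64.5 and 67.2 RPKM. Anxa2, the partner of S100A10, was low at 2.29 ± 0.170 RPKM and 1.26 ± 0.186 RPKM (SD, n = 3). It was higher in ULAs without overlap, with a log2 fold change of 0.54 and an adjusted p of 0.116 in limma. With 39 to 88 reads per library Anxa2 was above S100a10, which had 0 to 6. Anxa1, a partner of S100A11, was listed at 0 in all libraries, and Ahnak, a large scaffold protein of the annexin A2 complex, was at most 0.03 RPKM. Fgf1, the cargo of S100A13, was at 36.5 and 39.0 RPKM, Cacybp at 20.8 and 22.9 RPKM, and Atp2a2, the calcium pump of the endoplasmic reticulum, at 36.5 and 46.2 RPKM, none of them called. Ager was at 0.817 ± 0.203 and 0.523 ± 0.240 RPKM (SD, n = 3), below the filter.

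Of 43 other genes of EF-hand sensors and buffers, such as neuronal calcium sensors, 42 had a row and 25 were tested, and 0 were called in limma. At an unadjusted p under 0.05, 4 were higher in ULAs and 6 in DLAs, and the median log2 fold change was −0.031. Rcn2, a calcium-binding protein of the endoplasmic reticulum, was the most abundant at 454.0 ± 42.3 RPKM in ULAs and 497.7 ± 64.5 RPKM in DLAs (SD, n = 3). It was thus at the level of S100a1. Efhd2 was at 99.2 and 94.4 RPKM. Cib1 was at 68.8 and 77.5 RPKM, Pdcd6 at 60.1 and 73.7 RPKM, and Calm2 at 57.0 and 61.7 RPKM. Scgn, Cabp7 and Rcvrn, which encode calcium-binding proteins of endocrine cells, neurons and photoreceptors, were listed at 0.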

How the data were processed

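The study prepared cDNA with a SMART-Seq v4 kit and barcoded libraries with a Nextera XT kit, neither of which marks the strand, and read 36 bases from 1 end on an Illumina HiSeq instrument. The authors deposited RPKM values, 1 row per symbol with its mRNA length. The submitters' processing notes name bcl2fastq 1.8.4, CASAVA 1.8.2 and mm9, without roles. The aligner, the counting program and the annotation are not given in the sources used here, and the table held 0 columns of other samples. Start positions are given 1-based.

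Rows with a mean of at least 1 RPKM were compared on log2(RPKM + 1), a scale on which fold changes of low genes are understated, by limma 3.58.1 in R 4.3.3 (lmFit, eBayes with intensity trend), in a model of brain plus layer. Tests were 2-sided and were adjusted by Benjamini-Hochberg over all rows tested. The labels' replicate number was taken as the brain, since the study used 3 brains for both layers and same-numbered libraries deviated together (r across rows of 0.42, 0.33 and 0.34, against −0.20 to −0.16 otherwise). Reads per library were inferred from the steps of RPKM in rows of up to 500 bases, of which at least 99.9% equalled a whole number of reads exactly after truncation to 2 decimals, against 67.7% to 77.6% for the next best depth. On simulated data for the 13999 rows, 0% of 200 rows changed by a log2 value of 0.5 were called, 92.5% at 1 and 100% at 2; no member's difference reached 0.5. Other software was Python 3.11.15, numpy 2.4.6, pandas 2.3.3, scipy 1.17.1 and matplotlib 3.10.9. Promoters came from RefSeq and transcripts from GENCODE, both on GRCm38, and positions were never converted from or to mm9.

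The members and gene lists were chosen with earlier results of these data known. Named besides the members are other S100 genes above 0, called partners and EF-hand genes with the 6 most abundant of each list, the 3 rows nearest to S100b and to the member with the largest change, and markers at 0; 1 gene that this rule names is not reported here. Anxa2, Anxa1, Ahnak, Ager, Scgn, Cabp7 and Rcvrn were named after their values were seen. So were Olig1, Pdgfra, Gpr17, Neu4, Sox10, Cspg4, Vcan, Fabp7, Thbs4, Myoc, Itih2, Rgs5, Pdgfrb and Rarres2. Alternatives were no brain term, a pseudocount of 0.1, no filter, a mean of at least 5 RPKM, centring on the median, quantile normalization, leaving out each brain in turn, a loess correction for mRNA length (span 0.5), no trend and an adjusted p under 0.1. A fit of the rows with a RefSeq accession was added after seeing the data.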

Additional observations from a re-analysis of the deposited data

How the results depend on the processing

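The count of S100 members called was 0 in each direction under all 12 other fits and at an adjusted p under 0.1. S100b, S100a1, S100a13 and S100a16 kept a value below 0 and S100a4 one above 0 in all 12, with ranges of −0.32 to −0.17, −0.34 to −0.15, −0.35 to −0.17, −0.32 to −0.054 and 0.052 to 0.32. Leaving out 1 brain moved 3 of them by over 1.5 times: S100a1 was −0.18 without brain 2, S100a16 was −0.067 without brain 2 and −0.32 without brain 3, and S100a4 was 0.052 without brain 2 and 0.32 without brain 3. The lowest adjusted p-values of S100b, S100a1 and S100a13, 0.0916, 0.0713 and 0.0754, came without brain 3, and the highest, 0.795, 0.819 and 0.797, without brain 1. S100a6, at −0.067, turned to 0.028 with quantile normalization and 0.063 with the correction for mRNA length, and ranged from −0.11 without brain 3 to 0.018 without brain 2; the cause was not tested.

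Without the replicate block, which pairs the libraries of a brain, S100b, S100a1 and S100a13 had adjusted p-values of 0.417, 0.437 and 0.439, and Plat and Gfap lost their calls (0.460 and 0.0994). They also lost them with no filter (0.339 and 0.301), and Plat with no trend (0.0812).

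The rows called higher in ULAs and DLAs, 100 and 128, came to 23 and 18 without the block, 0 and 0 with no filter over 27963 rows, 65 and 79 with no trend, and 209 and 255 at an adjusted p under 0.1. With the correction for mRNA length 74 were higher in ULAs and 70 in DLAs. The counts were 138 and 103 with quantile normalization, and 154 and 178 with RefSeq rows only. Leaving out a brain gave 96 to 431 rows higher in ULAs and 121 to 695 higher in DLAs, the highest of each without brain 3. Fold changes of S100a10 and S100a11, which entered the fit with no filter, are not given, since their level is near that of 3 reads.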
